A study of Homo sapiens with 15 samples.

Results

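A negative-control siRNA was compared with plain control cells in NCI-H1975, an established line of human non-small cell lung cancer that carries a mutated EGFR. Here the 3 libraries labelled siNC were set against the 3 labelled control, over every locus with a value of at least 1 FPKM in at least 3 of these 6 libraries. FPKM counts fragments relative to gene length and library depth, so it is a level per length. Of the 61248 loci in the deposited table, 13907 met this rule, of which 11186 are protein-coding genes. The series holds 15 poly(A)-selected RNA libraries of the same line in 5 groups of 3, the other groups being almonertinib (a drug that blocks EGFR), EGF (a growth factor that binds it) and siEGFR (an siRNA directed at its transcript). The labels give the siNC group only as siNC and the control group only as control. They state no siRNA sequence, delivery method, dose, time or culture condition, and they do not say whether the control cells received a transfection reagent. The siRNA itself, its delivery and any difference in culture therefore cannot be told apart here. The labels also do not say that the replicates were separate cultures, so each p-value measures the spread between these libraries only, which may be technical.

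An siRNA is a short double-stranded RNA that is loaded into an Argonaute protein and guides it to matching transcripts. A negative-control siRNA is designed to match no transcript of the cell, and it serves as the reference for a targeting siRNA. Delivery reagents bring RNA and lipid into the cell, and double-stranded RNA can be recognised by sensors such as MDA5 (IFIH1), TLR3 and PKR (EIF2AK2), which act on interferon and NF-kB genes. The gene lists below cover these responses, and also the cell cycle, antigen presentation, growth-factor signalling, metabolism and cell identity, which can vary in lung adenocarcinoma lines.

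Depth in replicate order was 21100647, 19013968 and 18009903 reads for control and 19844536, 19979929 and 34908302 reads for siNC, as recovered from the step size of the FPKM values. A lone read on a 1 kb gene was therefore worth 0.0286 to 0.0555 FPKM. The leading principal component of the 6 libraries held 85.8% of the variance and separated the groups. The next held 8.72% and spread the control libraries, with control 1 at 25.3, control 2 at -18.9 and control 3 at -3.71. The median SD within a group, on the log2(FPKM + 1) scale, was 0.144 for control and 0.058 for siNC. The epithelial keratin KRT8 was at 201, 252 and 240 FPKM in the control libraries and at 226, 236 and 224 FPKM in the siNC libraries. Both groups thus carried this marker of the line at overlapping levels. Other markers of the line were not level, as KRT7, EPCAM, CDH1 and EGFR were higher in siNC (values below).

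Most of the tested genes differed between siNC and control at the filter and threshold used. By limma on log2(FPKM + 1), with Benjamini-Hochberg adjusted p under 0.05 over all 13907 genes, 4759 genes (34.2%) were higher in siNC and 4160 (29.9%) were lower, together 64.1%. At least 2-fold differences on this scale were found for 1070 higher genes (7.69%) and 779 lower genes (5.6%). In 70.3% of the genes the libraries of the groups did not overlap. The median log2 fold change over all tested genes was 0.04, and the middle of the distribution ran from -0.37 at the lower quartile to 0.45 at the upper. Of the tested genes, 1194 stayed under 1 FPKM in every library of 1 group and so passed the filter only through the other, and 1174 of them were called. Such genes had to differ. They make up 4 of the tested genes in each of the MHC class II and G1/S lists and 5 in the alveolar list. The NF-kB list holds 3, the interferon-stimulated, fatty acid binding, endothelial and adipocyte lists 2 each, and 9 further lists 1 each: RNA sensing, EGFR restrainers, lysosome and autophagy, ATF4, p53, NRF2, epithelial, collagen and matrix, and FOXO. With so many genes called, a count of list members is read below against 34.2% higher and 29.9% lower. A lack of overlap between the groups is likewise read against 70.3%. Levels are given as mean FPKM ± SD and changes as log2 fold change ± SE on the log2(FPKM + 1) scale, with n = 3 libraries per group. The added 1 understates the change of low genes. Rose and fell refer to genes past the threshold.

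**Figure D1:**
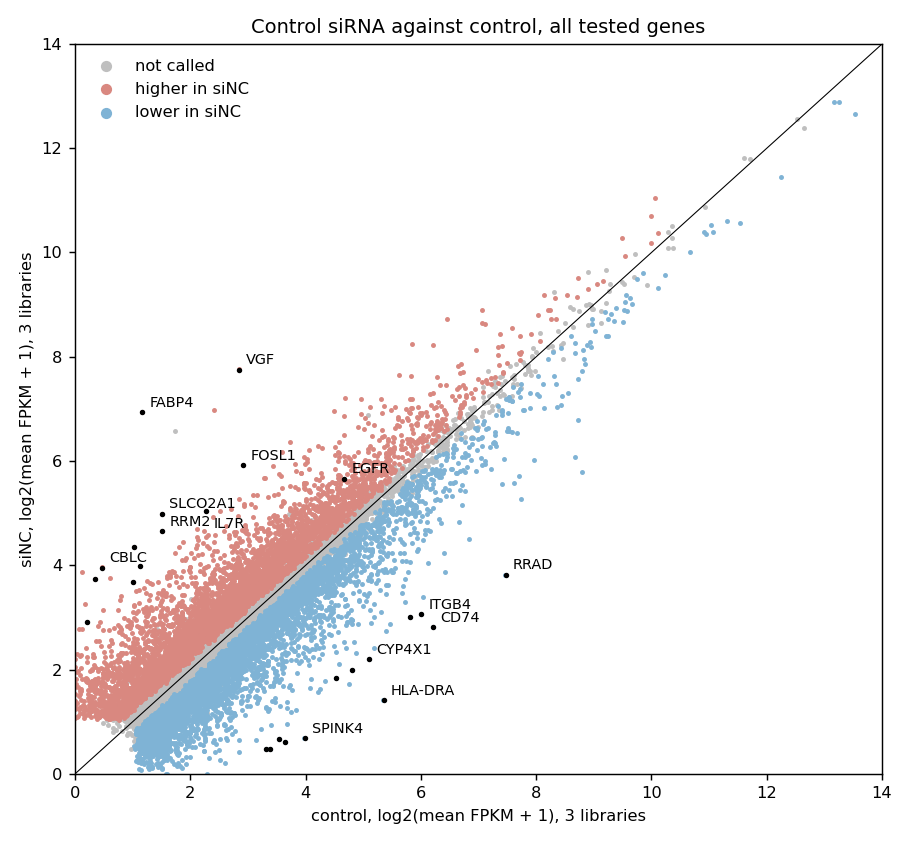
Level of each of the 13907 tested genes, as log2 of the group mean FPKM plus 1, in control (horizontal axis) and siNC (vertical axis), each over 3 libraries. Red points were called higher in siNC (34.2%), blue points lower (29.9%) and grey points were not called, the line marks equal levels, and black points are EGFR, HLA-DRA and the genes with the largest differences, of which some are labelled.

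The gene with the largest increase was FABP4 (ENSG00000170323), a cytosolic fatty acid binding protein best known from adipocytes and macrophages. It stood at 0.208, 2.42 and 1.1 FPKM in control 1, 2 and 3 and at 119, 125 and 121 FPKM in siNC 1, 2 and 3. All siNC libraries lay far above all control libraries, and the mean was 97.8 times the control mean (log2 fold change 5.90 ± 0.34, adjusted p = 2.07e-05). With controls this low and uneven the ratio depends on the library, at 186 without control 2 and 69.1 without control 1. VGF (ENSG00000128564), a secreted granule protein of neurons and endocrine cells, stood at 4.51, 8.14 and 5.88 FPKM in control and at 223, 216 and 207 FPKM in siNC. The groups were again far apart, with a ratio of means of 34.8 (4.94 ± 0.17, adjusted p = 4.42e-06). CBLC (ENSG00000142273), an epithelial ubiquitin ligase of the CBL family that acts on activated EGFR, was at 0.206, 0.489 and 0.448 FPKM in control and at 14.1, 15.1 and 14.4 FPKM in siNC. It was thus under 1 FPKM in every control library and rose by 3.50 ± 0.10 (adjusted p = 3.26e-06). These genes were selected for display with results of these data known.

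The 3 genes were also high in siEGFR, the other siRNA group, though below their siNC means, and they were low in EGF and almonertinib. FABP4 averaged 91.2 ± 7.7 FPKM in siEGFR, 0.637 ± 0.0922 in EGF and 0.799 ± 0.164 in almonertinib. VGF averaged 105 ± 8.3 FPKM in siEGFR, 5.71 ± 0.443 in EGF and 7.66 ± 0.79 in almonertinib. CBLC averaged 8.48 ± 0.533 FPKM in siEGFR, 0.303 ± 0.0218 in EGF and 0.268 ± 0.0148 in almonertinib. These levels are descriptions and were not tested here.

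Among the genes with the largest decreases, HLA-DRA (ENSG00000204287), the alpha chain of the antigen-presenting molecule HLA-DR, stood at 39.7, 40.5 and 39.0 FPKM in control and at 1.78, 1.65 and 1.59 FPKM in siNC. The control mean was 23.8 times the siNC mean (-3.93 ± 0.06, adjusted p = 1.22e-06), and the libraries within each group lay close together. CD74 (ENSG00000019582), the invariant chain that escorts MHC class II molecules, was at 69.4, 75.5 and 73.1 FPKM in control and at 6.21, 6.44 and 5.36 FPKM in siNC (-3.40 ± 0.08, adjusted p = 3.25e-06). RRAD (ENSG00000166592), a Ras-related GTPase that restrains calcium channels and is a known p53 target, was at 134, 205 and 189 FPKM in control and at 13.7, 13.2 and 12.4 FPKM in siNC. Its lowest control library was far above its highest siNC library, and it fell by 3.63 ± 0.16 (adjusted p = 7.1e-06). In siEGFR the means were 1.09 ± 0.458 FPKM for HLA-DRA, 5.4 ± 0.552 for CD74 and 8.24 ± 1.5 for RRAD. In EGF they were 25.9 ± 0.389, 42.3 ± 1.52 and 106 ± 15.6 FPKM, in the same order, and in almonertinib 52.8 ± 4.9, 91.0 ± 2.85 and 168 ± 28.6 FPKM.

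**Figure D2:**
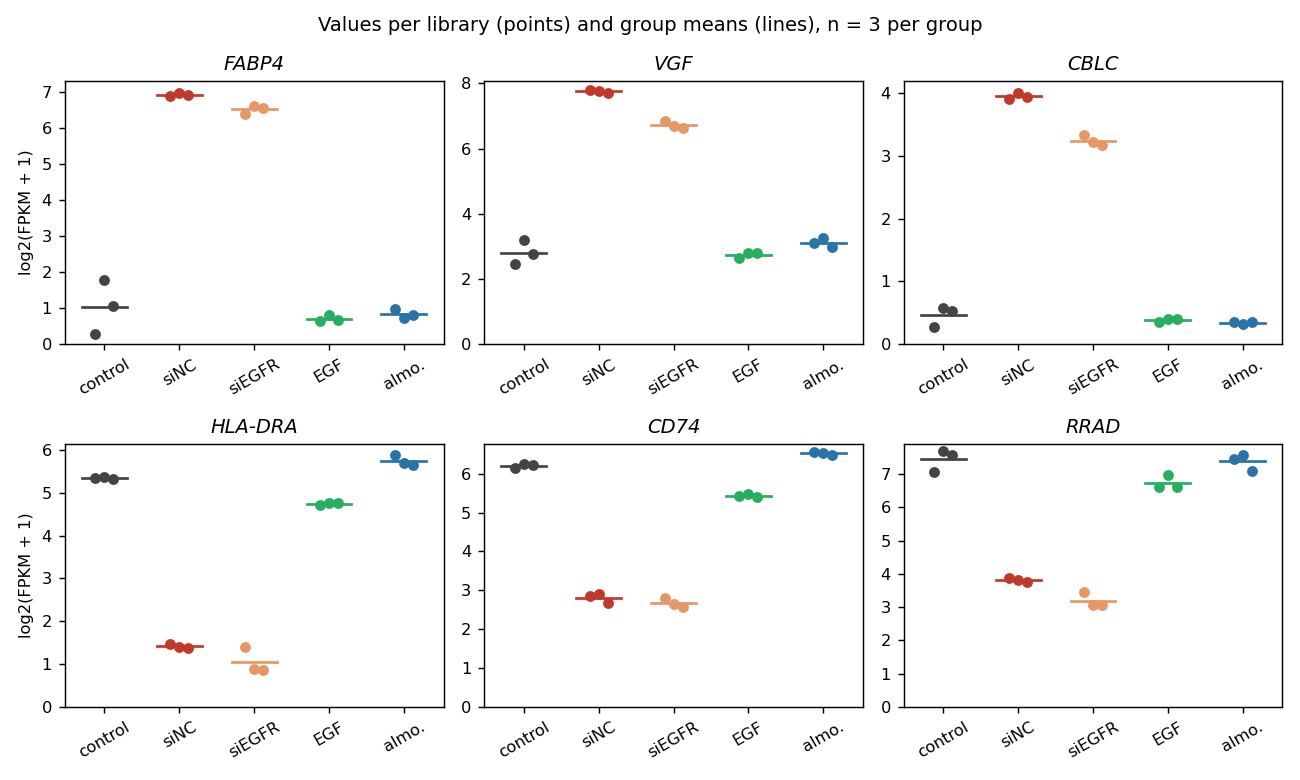
Expression of FABP4, VGF, CBLC, HLA-DRA, CD74 and RRAD as log2(FPKM + 1) in each of the 15 libraries (points) with the mean of each group of 3 (lines), where almo. is almonertinib. The top genes are high in siNC and siEGFR and low in control, EGF and almonertinib, and the bottom genes show the opposite order.

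VGF is a known target of the factor CREB, so the 250 bases before its start are shown as the window nearest to the strongest increase for which a sequence is given. Capitals mark a full cAMP response element (TGACGTCA) that begins 79 bases before the start and a TATA box (TATAAA on either strand) that begins 32 bases before it. Among all 27305 windows of this length, 1.77% hold the TGACGTCA letters and 11.1% hold TATAAA. Sequence and position are from RefSeq, build GRCh38.p14, printed 5′ to 3′ on the strand of the gene.
VGF, chr7:101165570-101165819, minus strand: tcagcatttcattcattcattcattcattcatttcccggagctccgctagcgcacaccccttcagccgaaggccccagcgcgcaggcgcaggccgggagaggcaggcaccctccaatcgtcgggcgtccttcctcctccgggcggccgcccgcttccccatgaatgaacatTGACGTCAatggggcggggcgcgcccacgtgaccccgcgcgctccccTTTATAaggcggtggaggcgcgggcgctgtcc
A match of letters is a description of the window and says nothing about which factor bound it in these cells.

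The other leading increases had varied known roles. RRM2, the inducible subunit of ribonucleotide reductase, rose from 1.86 ± 0.0438 to 24.2 ± 0.587 FPKM (3.14 ± 0.06), and EXO1, an exonuclease of DNA repair, from 1.18 ± 0.188 to 14.9 ± 0.203 FPKM (2.88 ± 0.08). FOSL1, an AP-1 subunit that follows ERK signalling, was at 5.45, 7.27 and 6.89 FPKM in control and at 61.6, 60.1 and 57.2 FPKM in siNC (3.02 ± 0.10, adjusted p = 3.84e-06). SLCO2A1, a prostaglandin transporter, rose from 1.84 ± 0.234 to 30.7 ± 0.652 FPKM (3.48 ± 0.07). CYP24A1, the enzyme that degrades vitamin D hormones, rose from 0.276 ± 0.169 to 12.3 ± 0.138 FPKM (3.39 ± 0.10). IL7R, the alpha chain of the interleukin-7 receptor, rose from 3.85 ± 0.398 to 31.8 ± 1.25 FPKM (2.76 ± 0.08). The same rule named MYBPH, a myosin-binding protein (3.33 ± 0.13), CLIC2, of the chloride intracellular channel family (2.71 ± 0.10), and SERPINB7, a serine protease inhibitor (2.68 ± 0.07). None of these genes had overlapping libraries, which the rule for naming them required. CYP24A1 was under 1 FPKM in control, so it passed the filter through siNC only and its log2 fold change is compressed by the added 1. Over the alternative settings given at the end, the change of CYP24A1 ran from 3.18 to 5.64 and that of CLIC2 from 2.28 to 5.49. Such a span for CLIC2 requires a control level well under 1 FPKM, so its log2 fold change is compressed as well. The change of MYBPH ran from 3.21 to 4.27 and that of SERPINB7 from 2.34 to 3.56.

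The other leading decreases included genes of epithelial adhesion and secreted proteins. ITGB4, the integrin beta chain of hemidesmosomes, fell from 63.2 ± 7.91 to 7.35 ± 0.337 FPKM (-2.94 ± 0.10), and periplakin (PPL), a linker of keratin filaments to junctions, from 55.0 ± 3.19 to 7.05 ± 0.397 FPKM (-2.80 ± 0.07). The protease inhibitor SPINK4 was at 12.9, 15.5 and 15.9 FPKM in control and at 0.774, 0.461 and 0.572 FPKM in siNC (-3.30 ± 0.11, adjusted p = 3.79e-06). TNFSF10, the death ligand TRAIL, fell from 22.0 ± 4.29 to 2.59 ± 0.156 FPKM (-2.66 ± 0.14), and INHBB, the beta B subunit of activins and inhibins, from 9.38 ± 1.18 to 0.398 ± 0.129 FPKM (-2.89 ± 0.11). ACE, the angiotensin-converting enzyme, fell from 8.88 ± 1.11 to 0.397 ± 0.00147 FPKM (-2.82 ± 0.10). The remaining genes given by the rule were CSDC2, an RNA-binding protein (-3.02 ± 0.15), the cytochrome P450 CYP4X1 (-2.90 ± 0.11), MAMDC2 (-2.86 ± 0.11) and the chitinase-like CHI3L2 (-2.82 ± 0.08). SPINK4, CSDC2, INHBB, MAMDC2 and ACE were under 1 FPKM in every siNC library, so their log2 fold changes are compressed by the added 1.

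Transcripts of antigen presentation genes were mostly lower in siNC. MHC class I molecules show peptides from inside the cell and pair with beta-2 microglobulin (B2M), the immunoproteasome and the TAP transporter supply the peptides, and NLRC5 activates the genes. MHC class II is activated by CIITA and loaded with the help of CD74 and HLA-DM. Of 16 MHC class I presentation genes 15 were tested, and 14 fell, against 29.9% of all genes. The exception was TAP2, a subunit of the peptide transporter, which rose from 1.88 ± 0.233 to 3.72 ± 0.102 FPKM (0.71 ± 0.08). The median change was -1.34, against 0.04 over all genes.

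HLA-B stood at 390, 486 and 457 FPKM in control and at 55.0, 55.8 and 51.4 FPKM in siNC (-3.01 ± 0.09, adjusted p = 3.26e-06). HLA-C was at 207, 210 and 218 FPKM in control and at 34.9, 40.5 and 37.2 FPKM in siNC (-2.47 ± 0.07), and the nonclassical HLA-E was at 194, 212 and 214 FPKM against 51.3, 52.9 and 50.2 FPKM (-1.98 ± 0.06). B2M was at 304, 260 and 281 FPKM in control and at 124, 129 and 132 FPKM in siNC (-1.13 ± 0.07). In each of the 4 genes every siNC library was below every control library. The activator NLRC5 fell from 15.7 ± 0.694 to 4.15 ± 0.141 FPKM (-1.69 ± 0.06) and the immunoproteasome subunit PSMB9 from 37.1 ± 5.59 to 13.9 ± 0.788 FPKM (-1.34 ± 0.11). HLA genes share long stretches of sequence, so the split of reads among them is uncertain.

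Of 17 MHC class II genes 10 were tested, 8 fell and none rose, with a median of -1.31, and 1 was higher without control 1. Of the tested genes 4 passed the filter through 1 group only. HLA-DMA, which helps load peptides, fell from 18.8 ± 0.605 to 4.43 ± 0.144 FPKM (-1.86 ± 0.06). CIITA itself was low, at 1.08, 1.09 and 1.0 FPKM in control and at 0.381, 0.381 and 0.411 FPKM in siNC (-0.56 ± 0.06, adjusted p = 0.000303). The DNA-binding subunit RFX5 had 21.9 ± 2.25 FPKM in control and 25.4 ± 0.197 FPKM in siNC (0.21 ± 0.08, adjusted p = 0.0591). HLA-DQA1 and HLA-DQB1 had no read in any of the 6 libraries.

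The windows before HLA-B, B2M and CD74 are shown because these genes fell together and carry known elements of antigen-presentation promoters. Capitals mark CCAAT, the letters bound by NF-Y, on either strand (ATTGG on the printed strand is the same site), and in B2M also 2 overlapping matches to the core of an interferon-stimulated response element (GAAA, any 2 bases, GAAA), which begin 144 and 138 bases before the start. In HLA-B the CCAAT matches begin 81, 74 and 56 bases before the start, in B2M 49 and in CD74 53. This core was found in 6 of the 13 MHC class I genes with a window, against 3.07% of all windows. CCAAT was found in 11 of 14 MHC class II genes and 7 of 13 MHC class I genes, against 33.0% of all windows. Sequences are from RefSeq, build GRCh38.p14.
HLA-B, chr6:31357180-31357429, minus strand: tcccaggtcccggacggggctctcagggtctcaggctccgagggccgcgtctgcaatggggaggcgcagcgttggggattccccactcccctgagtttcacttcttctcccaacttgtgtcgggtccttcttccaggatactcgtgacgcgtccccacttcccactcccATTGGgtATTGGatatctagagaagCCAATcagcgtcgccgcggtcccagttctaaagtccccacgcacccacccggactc
B2M, chr15:44711267-44711516, plus strand: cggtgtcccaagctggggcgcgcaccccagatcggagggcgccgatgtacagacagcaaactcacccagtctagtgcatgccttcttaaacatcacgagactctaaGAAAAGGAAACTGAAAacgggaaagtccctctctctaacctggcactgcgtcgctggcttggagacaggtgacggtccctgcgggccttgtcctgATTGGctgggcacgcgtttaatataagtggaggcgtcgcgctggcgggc
CD74, chr5:150412911-150413160, minus strand: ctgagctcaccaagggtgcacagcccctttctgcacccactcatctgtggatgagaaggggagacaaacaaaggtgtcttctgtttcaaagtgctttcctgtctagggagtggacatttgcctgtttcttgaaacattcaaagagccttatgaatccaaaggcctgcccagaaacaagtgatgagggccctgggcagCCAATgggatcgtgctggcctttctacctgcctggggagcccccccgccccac
These shares count letters on both strands, and no binding was measured.

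Cell-cycle genes were higher in siNC without exception among those tested. Genes of the G1/S phase are switched on by E2F factors and supply DNA replication. G2/M genes, which drive mitosis, are held off by the DREAM complex at CHR elements until cells cycle. All 32 of 32 G1/S genes rose, with a median of 1.85, against 34.2% of all genes. Of these, 4 passed the filter through siNC only. Of 30 G2/M genes 28 were tested and all 28 rose, with a median of 2.01. Changes ranged from 0.70 to 3.14 in G1/S and from 1.21 to 2.59 in G2/M. In every tested member the siNC libraries lay above the control libraries, while over all tested genes 70.3% had no overlap in either direction.

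RRM2 was at 1.82, 1.86 and 1.9 FPKM in control and at 24.3, 23.6 and 24.8 FPKM in siNC (adjusted p = 2.09e-06). CDC6, which loads the replicative helicase, was at 1.33, 1.36 and 1.47 FPKM against 11.6, 11.5 and 12.9 FPKM (2.44 ± 0.07, adjusted p = 3.26e-06). The siNC level of both genes was several times that of control in every library. E2F1, the transcription factor of the phase, rose from 2.65 ± 0.631 to 20.8 ± 0.501 FPKM (2.59 ± 0.13), the origin subunit ORC6 from 1.71 ± 0.116 to 10.1 ± 0.251 FPKM (2.03 ± 0.07) and the sliding clamp PCNA from 55.6 ± 5.75 to 198 ± 5.37 FPKM (1.82 ± 0.08).

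The mitotic kinesin KIF23 was at 3.13, 2.96 and 2.96 FPKM in control and at 17.9, 16.9 and 18.8 FPKM in siNC (2.23 ± 0.06, adjusted p = 3.26e-06). The ubiquitin-conjugating enzyme UBE2C, which works with the anaphase-promoting complex, was at 25.7, 24.7 and 22.8 FPKM against 114, 115 and 117 FPKM (2.20 ± 0.06). The groups were widely separated for both. The checkpoint kinase BUB1 rose from 3.3 ± 0.279 to 19.2 ± 0.524 FPKM (2.23 ± 0.07), cyclin B1 (CCNB1) from 43.9 ± 2.08 to 125 ± 1.93 FPKM (1.5 ± 0.06), PLK1, a mitotic kinase, from 9.12 ± 1.24 to 38.6 ± 1.07 FPKM (1.98 ± 0.09) and the proliferation marker MKI67 from 6.21 ± 1.46 to 37.5 ± 0.634 FPKM (2.44 ± 0.14). In bulk RNA a larger share of cycling cells and more transcript per cycling cell cannot be told apart.

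The promoter windows of CCNB2, PLK1 and E2F1 are shown as examples of elements in the promoters of these phases. Capitals mark CCAAT and the cell-cycle homology region CHR (TTTGAA) in CCNB2 and PLK1, and in E2F1 only the E2F letters TTTGGCGC. The E2F1 window also holds CCAAT letters, which are not marked. The CHR begins 29 bases before the start in both CCNB2 and PLK1, and the E2F match 20 bases before that of E2F1. CHR letters were found in 14 of the 24 G2/M genes with a window and in 1 of 28 G1/S genes, against 13.6% of all windows. An E2F match (TTTCCCGC or TTTGGCGC) was found in 12 of 28 G1/S genes and 2 of 24 G2/M genes, against 1.96% of all windows. CCAAT was found in 20 of 24 G2/M and 17 of 28 G1/S genes, against 33.0% of all windows, and so was common in both. Sequences are from RefSeq, build GRCh38.p14, and both strands were searched.
CCNB2, chr15:59104896-59105145, plus strand: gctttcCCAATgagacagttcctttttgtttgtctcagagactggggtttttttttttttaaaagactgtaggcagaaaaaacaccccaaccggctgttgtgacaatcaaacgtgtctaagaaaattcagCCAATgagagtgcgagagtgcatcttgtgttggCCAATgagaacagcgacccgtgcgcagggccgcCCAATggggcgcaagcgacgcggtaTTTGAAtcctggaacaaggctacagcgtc
PLK1, chr16:23678639-23678888, plus strand: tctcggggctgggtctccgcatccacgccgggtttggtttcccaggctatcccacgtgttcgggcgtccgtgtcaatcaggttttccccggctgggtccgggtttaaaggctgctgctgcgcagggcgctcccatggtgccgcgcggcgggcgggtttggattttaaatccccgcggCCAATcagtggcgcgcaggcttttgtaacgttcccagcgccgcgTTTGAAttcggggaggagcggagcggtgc
E2F1, chr20:33686386-33686635, minus strand: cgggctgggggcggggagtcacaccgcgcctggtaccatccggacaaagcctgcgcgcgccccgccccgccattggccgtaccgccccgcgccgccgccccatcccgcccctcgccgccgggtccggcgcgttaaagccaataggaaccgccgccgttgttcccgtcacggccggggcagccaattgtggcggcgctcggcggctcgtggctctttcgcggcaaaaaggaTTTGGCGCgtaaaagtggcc

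Replication-dependent histone genes moved against the other S-phase genes in these poly(A)-selected libraries. Their main transcripts end in a stem-loop with no poly(A) tail, so poly(A) selection catches them only in part. Of 12 such genes 9 were tested and all 9 fell, with a median of -1.17. H2AC6 was at 85.5, 80.7 and 76.3 FPKM in control and at 25.7, 27.9 and 28.1 FPKM in siNC (-1.53 ± 0.07, adjusted p = 7.4e-06), and H4C8 at 13.3, 12.2 and 13.1 FPKM against 4.89, 4.6 and 4.7 FPKM (-1.27 ± 0.06). In neither gene did the groups overlap. SLBP, the protein that binds the histone stem-loop, rose from 15.6 ± 0.39 to 31.5 ± 0.923 FPKM (0.97 ± 0.05). Histone genes are near-identical copies, so reads may be split among them. The H2AC6 window is shown because 9 of 11 histone windows hold TATAAA (against 11.1% of all) and 10 of 11 hold CCAAT. Capitals mark CCAAT on either strand, beginning 172, 98 and 68 bases before the start, and TATAAA at 31 bases (RefSeq, GRCh38.p14).
H2AC6, chr6:26123922-26124171, plus strand: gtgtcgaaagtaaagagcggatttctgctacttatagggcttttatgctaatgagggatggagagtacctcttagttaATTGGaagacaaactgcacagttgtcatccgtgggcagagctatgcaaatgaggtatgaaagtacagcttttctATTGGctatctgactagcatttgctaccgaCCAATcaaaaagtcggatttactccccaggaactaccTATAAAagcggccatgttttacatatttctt

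**Figure D3:**
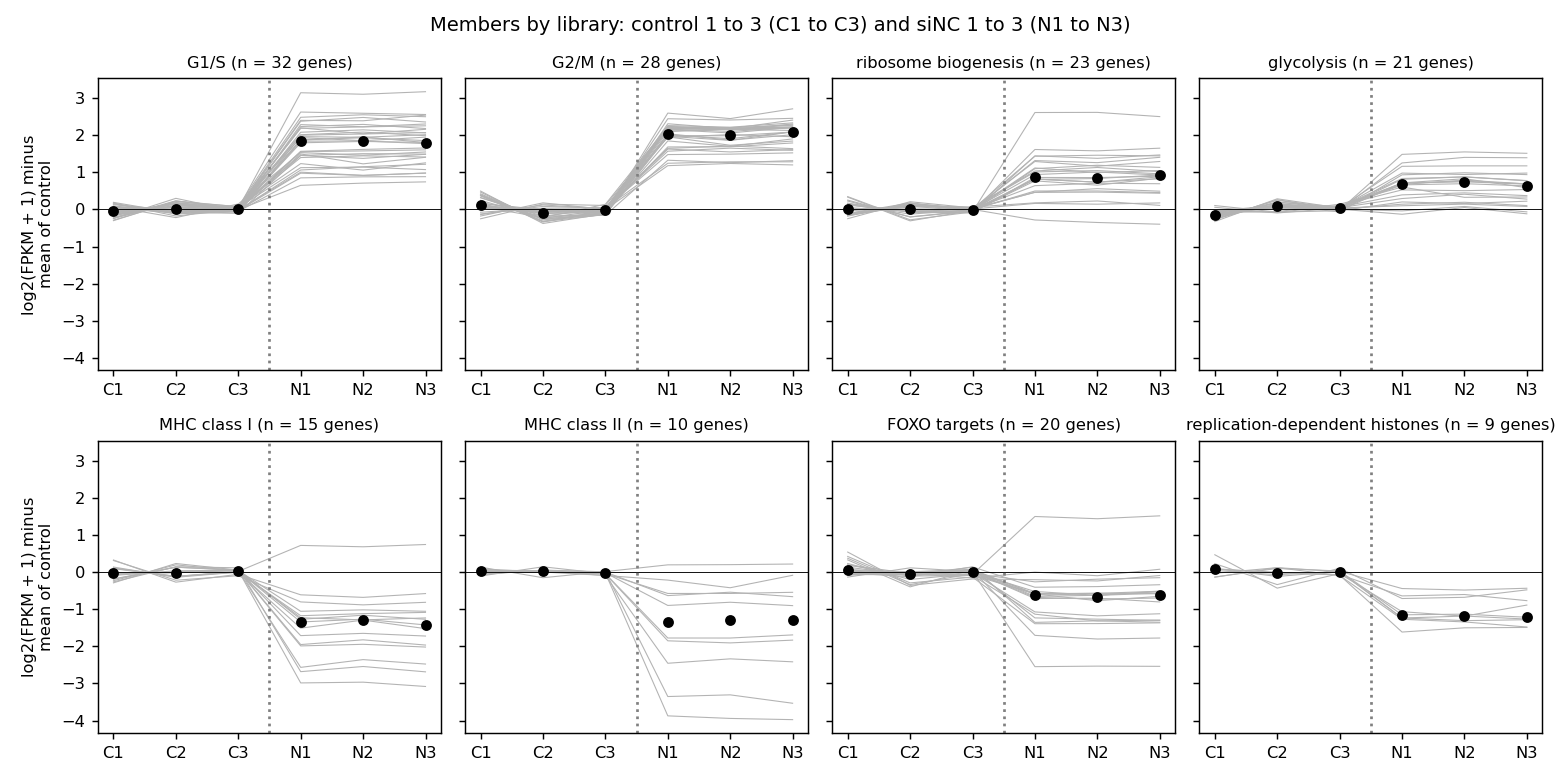
Each line is a gene of the list named above the panel, drawn as its log2(FPKM + 1) in control 1 to 3 (C1 to C3) and siNC 1 to 3 (N1 to N3) minus its mean over the control libraries, and black points are medians over the genes tested. G1/S and G2/M medians sit near 2 in each siNC library, and the MHC and histone medians lie below -1 in each.

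EGFR, several of its ligands and many outputs of ERK were higher, while other growth-signalling lists were mixed or lower. The EGFR family signals through receptors and their ligands to ERK, whose output includes the phosphatases of the DUSP family, Sprouty proteins, ETS factors and cyclin D1. EGFR itself was at 28.0, 22.3 and 22.8 FPKM in control and at 49.4, 49.4 and 49.8 FPKM in siNC, with no overlap (1.00 ± 0.09, adjusted p = 0.000132). Of 12 genes of the family 8 were tested, 5 rose and none fell (median 1.02), although 1 was lower without control 1 or without control 2. Of the ligands, TGFA rose from 1.76 ± 0.172 to 8.38 ± 0.207 FPKM (1.77 ± 0.07), AREG from 4.32 ± 0.543 to 13.3 ± 0.198 FPKM (1.43 ± 0.09) and HBEGF from 2.51 ± 0.0465 to 6.19 ± 0.28 FPKM (1.03 ± 0.06). ERBB2, the partner receptor, had 11.1 ± 1.36 FPKM in control and 10.2 ± 0.275 FPKM in siNC (adjusted p = 0.346).

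In the ERK output list 12 of 19 tested genes rose and 3 fell (median 0.61, 20 listed). Cyclin D1 (CCND1) was at 20, 18.9 and 16.6 FPKM in control and at 74.6, 75.3 and 76.2 FPKM in siNC (1.97 ± 0.08, adjusted p = 5.26e-06). The ETS factor ETV4 rose from 2.25 ± 0.0324 to 9.42 ± 0.206 FPKM (1.68 ± 0.06) and the ERK phosphatase DUSP6 from 2.16 ± 0.0821 to 9.04 ± 0.547 FPKM (1.67 ± 0.07), and both groups were separate for each. DUSP5, another ERK phosphatase, fell from 25.2 ± 2.7 to 14.2 ± 0.297 FPKM (-0.79 ± 0.08), so the list was not uniform. Of 16 tested immediate early genes (20 listed) 7 rose and 6 fell. JUN rose from 10.4 ± 0.0729 to 29.9 ± 0.296 FPKM (1.44 ± 0.05) and KLF10 by 1.18 ± 0.06, whereas EGR1 fell from 13.7 ± 1.24 to 4.5 ± 0.249 FPKM (-1.41 ± 0.08). Of the 13 EGFR restrainers, all tested, 6 rose and 4 fell. Beside CBLC at the top, LRIG1, a transmembrane protein that promotes loss of the receptor, fell from 25.3 ± 1.61 to 8.46 ± 0.149 FPKM (-1.48 ± 0.06) and LRIG3 by 0.48 ± 0.05.

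FOXO factors are active when PI3 kinase and AKT signalling is low, and their targets were mostly lower. Of 24 listed genes 20 were tested, 16 fell and 1 rose (median -0.63). PIK3IP1, an inhibitor of PI3 kinase, was at 25.6, 30.6 and 28.5 FPKM in control and at 3.99, 4.04 and 4.02 FPKM in siNC (-2.54 ± 0.08, adjusted p = 3.26e-06). FOXO4 fell from 13.8 ± 0.785 to 3.36 ± 0.156 FPKM (-1.76 ± 0.07) and the mitophagy kinase PINK1 from 20.3 ± 1.06 to 7.86 ± 0.209 FPKM (-1.27 ± 0.06). Libraries of the groups did not overlap in these genes. The exception was the sestrin SESN3, which passed the filter through siNC only and rose from 0.471 ± 0.12 to 3.11 ± 0.114 FPKM (1.49 ± 0.08). Of the RGK family of small GTPases, to which RRAD belongs, only RRAD and GEM of 4 genes were tested, and GEM rose from 5.36 ± 0.392 to 9.55 ± 0.158 FPKM (0.73 ± 0.07).

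Genes that respond to foreign RNA showed no common direction. Of 40 interferon-stimulated genes 35 were tested, 14 rose and 11 fell, near the shares of all genes, and the median was 0.08. OAS3, an enzyme that senses double-stranded RNA, rose from 2.57 ± 0.153 to 8.29 ± 0.244 FPKM (1.38 ± 0.07), and its relative OAS1 increased from 1.92 ± 0.099 to 4.72 ± 0.182 FPKM (0.97 ± 0.07). ISG15, a ubiquitin-like protein, rose from 94.8 ± 13.4 to 144 ± 8.91 FPKM (0.60 ± 0.11). XAF1, an inhibitor of anti-apoptotic proteins, was at 4.76, 4.53 and 4.68 FPKM in control and at 1.02, 1.08 and 1.09 FPKM in siNC (-1.45 ± 0.06). IFIT1, one of the best known members, had 10.9 ± 1.79 FPKM in control and 11.5 ± 0.301 FPKM in siNC (0.08 ± 0.11, adjusted p = 0.541). The genes for interferon beta (IFNB1) and CXCL10 were under the filter, with means of 0 in control and of 0.0199 and 0.0508 FPKM in siNC.

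Of 17 RNA sensing genes 12 were tested, 5 rose and 5 fell. The number higher was 3 without control 2 and 2 without control 3 or any 1 siNC library. The adaptor MAVS fell from 55.8 ± 4.7 to 35.8 ± 0.407 FPKM (-0.62 ± 0.07) and TRIM25, a ubiquitin ligase of the pathway, by 0.56 ± 0.06. The sensor IFIH1 rose by 0.20 ± 0.08 (adjusted p = 0.0492) and PKR (EIF2AK2) had 4.34 ± 1.98 FPKM in control and 6.69 ± 0.568 FPKM in siNC (adjusted p = 0.0694). TLR3 and ZBP1 were under the filter. In the NF-kB list 4 of 19 tested genes rose and 9 fell (24 listed, median -0.20). The number higher was 2, 1 and 2 without siNC 1, 2 and 3 in turn. The chemokine CCL2 fell from 8.55 ± 0.92 to 3.05 ± 0.103 FPKM (-1.23 ± 0.09), IL1B by 0.82 ± 0.07 and TNFAIP2 by 0.50 ± 0.05, whereas IL6 rose by 0.57 ± 0.09.

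In the machinery of RNA interference more genes rose than fell. Of 17 genes 16 were tested, 11 rose and 3 fell, with a median of 0.27. The number higher was 7 without siNC 1 or siNC 3, and the number lower 1 without control 3 or any 1 siNC library. The chaperone HSP90AA1, which helps load Argonaute among many other clients, stood at 152, 118 and 126 FPKM in control and at 480, 453 and 495 FPKM in siNC, and no library overlapped (1.85 ± 0.10, adjusted p = 1.81e-05). HSPA8 rose from 321 ± 12.5 to 558 ± 0.971 FPKM (0.80 ± 0.06), the exporter of microRNA precursors XPO5 by 0.74 ± 0.05 and DICER1, which cuts them, from 4.99 ± 1.51 to 8.72 ± 0.131 FPKM (0.73 ± 0.17). AGO2, the slicing Argonaute, was at 3.73, 3.27 and 2.89 FPKM against 4.23, 4.44 and 4.26 FPKM (0.31 ± 0.09, adjusted p = 0.0187), a small difference with no overlap.

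Most genes of glycolysis and of ribosome biogenesis were higher. All 21 glycolysis genes were tested, 17 rose and none fell (median 0.71). Phosphoglycerate kinase PGK1 was at 98.1, 105 and 105 FPKM in control and at 231, 233 and 233 FPKM in siNC (1.17 ± 0.06, adjusted p = 1.02e-05), PGAM1 rose by 1.35 ± 0.07 and the enolase ENO2 from 4.35 ± 0.589 to 14.2 ± 0.357 FPKM (1.52 ± 0.09). GAPDH, often used as a reference, was at 1080, 1560 and 1310 FPKM in control and at 1190, 1350 and 1200 FPKM in siNC, with overlapping groups (-0.06 ± 0.14, adjusted p = 0.727). Of 24 genes of ribosome biogenesis 23 were tested, 21 rose and 1 fell (median 0.87), the latter not called without siNC 3. RRS1, an assembly factor of the large subunit, rose from 11.1 ± 1.3 to 71.0 ± 3.16 FPKM (2.58 ± 0.09), NOLC1 from 22.5 ± 1.72 to 71.0 ± 1.8 FPKM (1.61 ± 0.07), and dyskerin (DKC1) from 22.3, 22.7 and 22.6 FPKM to 62.6, 63.8 and 63.0 FPKM (1.45 ± 0.05). The genes for the proteins of the ribosome itself did not follow. All 28 were tested, 2 rose and 11 fell (median -0.16), the latter being 19 without control 1 and 5 without control 3 or any 1 siNC library, with RPL10A lower by -0.47 ± 0.06 and RPL30 higher by 0.37 ± 0.05.

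The HIF1 targets, all 20 tested, were mixed, with 8 higher and 5 lower. STC2 rose from 15.8 ± 0.731 to 41.6 ± 1.15 FPKM (1.35 ± 0.06), the mitophagy receptor BNIP3 by 1.32 ± 0.09 and VEGFA by 0.67 ± 0.07. Of 24 nuclear genes of the respiratory chain 23 were tested, 13 rose and 2 fell (median 0.40), the latter being 0 to 6 without 1 library and 6 without control 1. The ATP synthase subunit ATP5F1B rose from 280 ± 21.3 to 580 ± 7.42 FPKM (1.05 ± 0.07) and ATP5MC1 by 1.01 ± 0.06. Among the 13 mitochondrially encoded genes, all tested, 2 rose and 5 fell (1 higher without control 3, siNC 1 or siNC 3, and 3 lower without siNC 1), and their share of reads was 5.74 to 5.9% in control and 4.64 to 4.82% in siNC. MT-CO3 was at 11200, 12700 and 11600 FPKM in control and at 6590, 6070 and 6620 FPKM in siNC (-0.88 ± 0.08), MT-CYB fell from 2140 ± 27.6 to 1340 ± 24.9 FPKM (-0.67 ± 0.06), and MT-ND1 rose from 1020 ± 23.9 to 1660 ± 57.9 FPKM (0.70 ± 0.06). The smaller differences of this genome were less secure. MT-ND2 was higher by 0.25 ± 0.07 (adjusted p = 0.0215), but by 0.01 (adjusted p = 0.884) once trends with GC content and length were removed, and it lost the call without control 3, siNC 1 or siNC 3 (adjusted p = 0.0596 to 0.107). MT-CO2 was lower, with a change of -0.36 ± 0.12 (adjusted p = 0.0311), and lost the call without control 2, control 3 or any 1 siNC library (adjusted p = 0.0579 to 0.11). MT-CO1 was lower by -0.29 ± 0.07 and lost the call without siNC 1 (adjusted p = 0.0568).

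Lipid genes moved in both directions. Among 28 genes of fatty acid binding and lipid droplets 19 were tested, 7 rose and 9 fell. Beside FABP4, the droplet coat protein PLIN2 was at 19.1, 24.5 and 22.0 FPKM in control and at 74.5, 79.0 and 74.0 FPKM in siNC (1.76 ± 0.09, adjusted p = 1.52e-05), and ANGPTL4, an inhibitor of lipoprotein lipase, was at 2.62, 3.38 and 2.96 FPKM against 15.1, 15.3 and 13.5 FPKM (1.97 ± 0.09). The groups were separate in both. The epidermal relative FABP5 rose from 5.53 ± 1.37 to 32.7 ± 3.26 FPKM (2.38 ± 0.15). The nuclear receptor PPARG, known to act on FABP4, PLIN2 and ANGPTL4, rose from 2.7 ± 0.257 to 6.17 ± 0.105 FPKM (0.96 ± 0.07), and its relative PPARA fell from 4.85 ± 0.677 to 1.54 ± 0.0182 FPKM (-1.20 ± 0.09). Whether PPARG acted on these genes here was not tested. PNPLA2, the lipase that empties droplets, fell from 37.0 ± 4.66 to 12.1 ± 0.747 FPKM (-1.53 ± 0.10). Adiponectin (ADIPOQ) had no read in any of the 6 libraries.

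Of 25 cholesterol synthesis genes 24 were tested, 1 rose and 9 fell (median -0.17), the rise being lost without control 3 or any 1 siNC library and the number higher being 3 without control 1 and 2 without control 2. Lanosterol synthase (LSS) fell from 45.0 ± 6.5 to 13.6 ± 0.865 FPKM (-1.65 ± 0.11), TM7SF2 by 1.43 ± 0.09 and INSIG1, a sterol-responsive brake, from 23.6 ± 1.31 to 11.5 ± 0.302 FPKM (-0.98 ± 0.06). In fatty acid synthesis 5 of 16 genes rose and 8 fell, led by the carbohydrate-responsive factor MLXIPL at -2.42 ± 0.09 and ATP citrate lyase (ACLY) at 0.77 ± 0.06, with ACSS2 at -1.04 ± 0.09. FASN had 49.9 ± 8.16 FPKM in control and 49.7 ± 3.16 FPKM in siNC (adjusted p = 0.986).

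Stress genes moved by subgroup. Of 24 ATF4 targets 22 were tested, 16 rose and 4 fell (median 0.57), the latter being 2 without control 3 or any 1 siNC library. PSAT1, an enzyme of serine synthesis, rose from 14.9 ± 1.83 to 60.2 ± 1.43 FPKM (1.95 ± 0.09), PSPH of the same pathway from 14.7 ± 1.35 to 43.8 ± 0.644 FPKM (1.51 ± 0.07), and the amino acid transporter SLC7A5 rose from 29 ± 3.06 to 99.9 ± 2.14 FPKM (1.75 ± 0.08). The stress markers of the pathway moved less, with TRIB3 at 0.48 ± 0.09 and DDIT3 at 0.35 ± 0.06. Of 18 ER chaperone genes, all tested, 9 rose and 2 fell, with SDF2L1 at 1.28 ± 0.14, DNAJB11 at 0.80 ± 0.10 and HERPUD1 at -0.76 ± 0.07. The central chaperone HSPA5 had 136 ± 2.41 FPKM in control and 138 ± 1.86 FPKM in siNC (adjusted p = 0.752).

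Of 23 NRF2 targets 21 were tested, 9 rose and 9 fell. Heme oxygenase (HMOX1) was at 8.69, 11.3 and 9.2 FPKM in control and at 57.9, 59.7 and 59.1 FPKM in siNC (2.49 ± 0.10, adjusted p = 5.35e-06), whereas the aldo-keto reductase AKR1C3 fell from 42.9 ± 7.51 to 6.3 ± 0.127 FPKM (-2.57 ± 0.13) and the ferritin heavy chain FTH1 from 1110 ± 23.6 to 639 ± 9.09 FPKM (-0.79 ± 0.06). The AKR1C genes resemble each other closely, and their counts may be shared. Among 23 p53 targets 21 were tested, 5 rose and 7 fell. GDF15 fell with RRAD, from 21.4 ± 1.65 to 6.78 ± 0.252 FPKM (-1.52 ± 0.07), while the nuclease AEN rose from 1.25 ± 0.153 to 7.93 ± 0.0984 FPKM (1.99 ± 0.07) and the cell-cycle inhibitor CDKN1A from 8.77 ± 0.838 to 13.8 ± 0.502 FPKM (0.60 ± 0.08). Of 11 genes of metal handling 8 were tested, 3 rose and 4 fell, the rises being lost without control 3, siNC 1 or siNC 2 and 1 remaining without siNC 3, with MT1F at -1.74 ± 0.07, MT1M at -1.19 ± 0.23 and MT2A at -0.89 ± 0.06. Metallothioneins are close copies, and their reads may be split.

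Lysosome and autophagy genes were lower on balance, with 16 of 27 tested genes lower and 4 higher (28 listed, median -0.38). GABARAPL1, of the family that tags autophagosomes, fell from 24.9 ± 0.133 to 6.27 ± 0.334 FPKM (-1.83 ± 0.06), ATG9B from 10.8 ± 1.06 to 1.45 ± 0.0101 FPKM (-2.26 ± 0.08) and TFEB, a factor that drives lysosomal genes, from 5.79 ± 0.653 to 1.23 ± 0.207 FPKM (-1.60 ± 0.11). The protease cathepsin L (CTSL) went the other way, from 44.8 ± 3.75 to 81.3 ± 3.78 FPKM (0.85 ± 0.08).

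**Figure D4:**
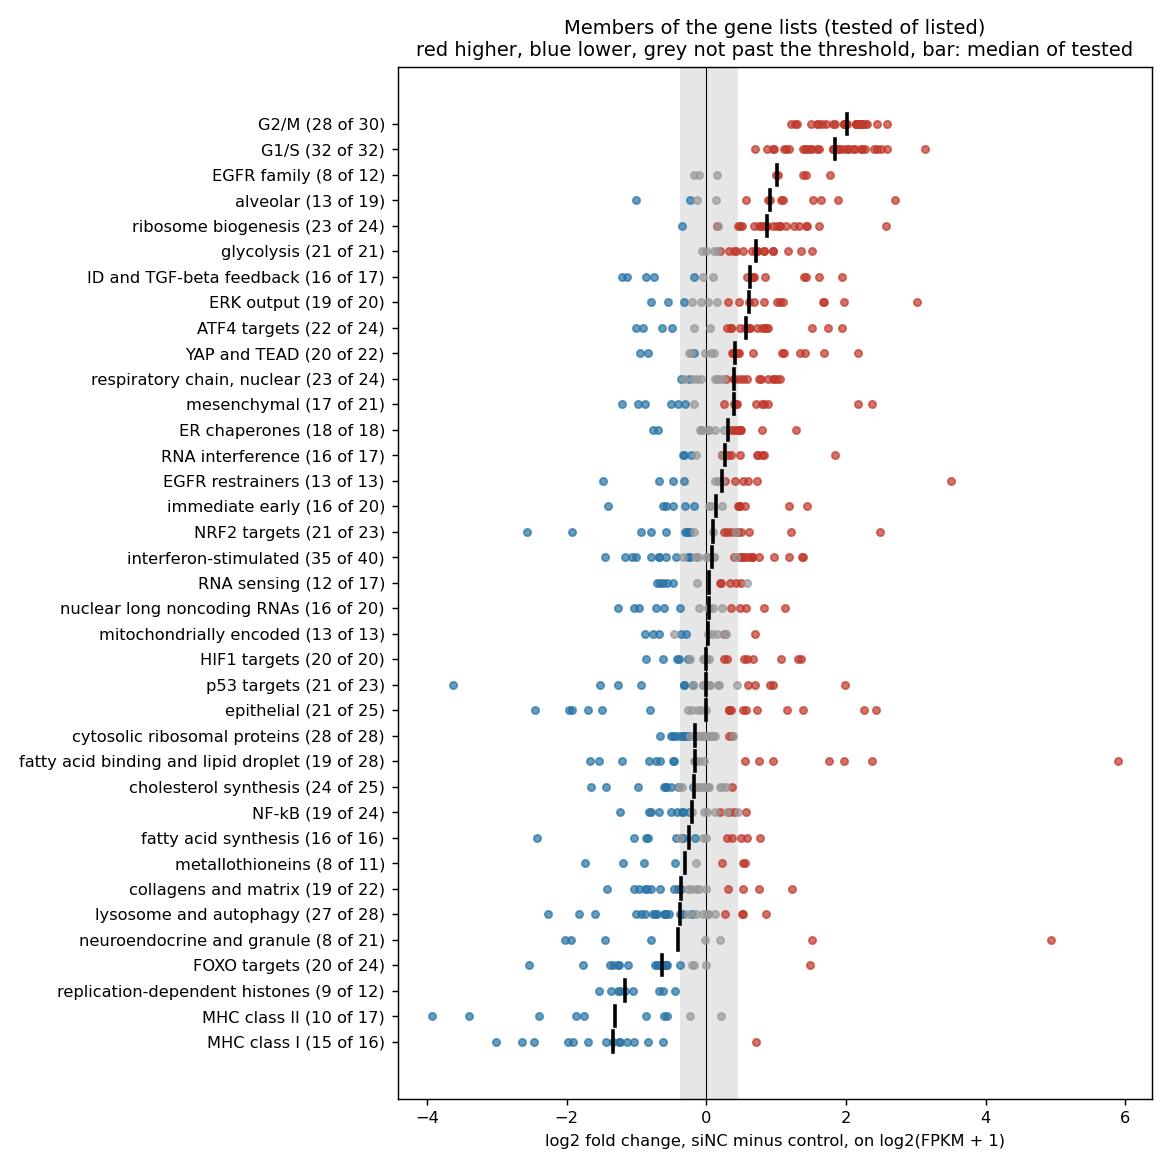
Log2 fold change of siNC against control on the log2(FPKM + 1) scale for each tested member of 37 gene lists, sorted by their median (black bar), with called members in red (higher) or blue (lower) and others in grey. The grey band spans the quartiles of all tested genes, -0.37 to 0.45, of these lists only G1/S and G2/M have every member to the right of it and only the histones every member to the left.

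Epithelial and mesenchymal genes moved in both directions. In the epithelial list 21 of 25 genes were tested, 10 rose and 6 fell. The adhesion molecule EPCAM was at 7.12, 5.93 and 6.69 FPKM in control and at 35.1, 34.2 and 36.3 FPKM in siNC (2.26 ± 0.07, adjusted p = 3.6e-06), E-cadherin (CDH1) rose from 5.69 ± 0.616 to 16.3 ± 0.518 FPKM (1.38 ± 0.08) and the keratin KRT7 from 56.4 ± 12.4 to 303 ± 12.2 FPKM (2.43 ± 0.15). In contrast, the tight-junction gene TJP3 fell by 1.92 ± 0.08, the epithelial factor ELF3 from 10.1 ± 0.286 to 2.93 ± 0.243 FPKM (-1.50 ± 0.07) and plakoglobin (JUP) from 51.6 ± 8.25 to 12.4 ± 0.707 FPKM (-1.97 ± 0.12). In the mesenchymal list 17 of 21 were tested, 10 rose and 6 fell. Smooth muscle actin (ACTA2) rose by 2.18 ± 0.10, whereas fibronectin (FN1) fell from 350 ± 24.9 to 151 ± 5.39 FPKM (-1.21 ± 0.07). ACTB, the cytoskeletal actin, was at 857, 1300 and 1050 FPKM in control and at 2080, 2210 and 2040 FPKM in siNC (1.01 ± 0.15).

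Of 19 alveolar genes 13 were tested, 9 rose and 2 fell (median 0.92), 1 of the latter without control 3, siNC 1 or siNC 3, but 5 of the 13 passed the filter through 1 group only. The surfactant lipid enzyme LPCAT1 rose from 38.4 ± 0.0996 to 145 ± 1.59 FPKM (1.89 ± 0.05) and the lineage factor NKX2-1 from 4.53 ± 0.0925 to 15 ± 1.09 FPKM (1.53 ± 0.07). LAMP3, a protein of lamellar bodies, rose from 0.129 ± 0.041 to 2.51 ± 0.0793 FPKM (1.64 ± 0.07). Surfactant protein A (SFTPA1) was listed at 0, 0.107 and 0.0227 FPKM in control and at 6.23, 5.84 and 5.43 FPKM in siNC (2.71 ± 0.08), and its near-identical copy SFTPA2 makes the assignment of reads uncertain. Surfactant protein C (SFTPC) fell from 1.15 ± 0.0768 to 0.066 ± 0.0168 FPKM (-1.01 ± 0.07). The neuroendocrine list gave no class around VGF. Of its 21 genes 8 were tested, 2 rose and 4 fell, with carboxypeptidase E (CPE) down from 194 ± 11.6 to 47.0 ± 0.931 FPKM (-2.02 ± 0.06) and SCG5 by 1.45 ± 0.07, and INSM1 and NEUROD1, factors that define such cells, had no read.

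Of 22 YAP and TEAD targets 20 were tested, 12 rose and 3 fell (median 0.41). Tissue factor (F3) was at 2.36, 1.95 and 2.04 FPKM in control and at 12.9, 12.5 and 14 FPKM in siNC (2.18 ± 0.08), NT5E rose by 1.68 ± 0.08 and TEAD4 by 1.42 ± 0.09, while CCN2, a commonly used target, had 16.0 ± 1.99 FPKM in control and 17.3 ± 0.194 FPKM in siNC (adjusted p = 0.3). In the ID and TGF-beta feedback list 9 of 16 tested genes rose and 5 fell (17 listed). ID1, ID2 and ID3, which block helix-loop-helix factors, rose by 1.94 ± 0.12, 1.43 ± 0.09 and 1.61 ± 0.08, and PMEPA1 by 1.40 ± 0.06. The ligand TGFB1 fell from 20.1 ± 2.32 to 8.15 ± 0.243 FPKM (-1.20 ± 0.09) and the receptor TGFBR2 from 38.6 ± 1.45 to 20.7 ± 0.404 FPKM (-0.87 ± 0.06). Among 22 collagen and matrix genes 19 were tested, 4 rose (2 without siNC 3) and 10 fell, with the laminin chain LAMA5 at -1.42 ± 0.09 and SPARC at -0.88 ± 0.06.

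Long noncoding RNAs and gene classes differed in their balance. Of 20 nuclear and snoRNA-host RNAs 16 were tested, 5 rose and 6 fell. The control libraries held 99.4, 48.5 and 70.0 FPKM of MALAT1, a nuclear transcript, and the siNC libraries 32.7, 31.2 and 36.0 FPKM (-1.04 ± 0.24, adjusted p = 0.00799). Its control libraries spanned a wide range, with control 1 highest, yet lay above all siNC libraries. EPB41L4A-AS1 fell by 0.97 ± 0.08, and the snoRNA host SNHG6 rose from 39.9 ± 4.16 to 88.1 ± 4.16 FPKM (1.13 ± 0.09) and its like SNHG1 from 13.7 ± 1.04 to 25.2 ± 0.183 FPKM (0.83 ± 0.07). Over whole classes, 79 of 365 long intergenic RNAs were higher and 168 lower (median -0.26), and 76 of 483 antisense genes were higher and 206 lower (median -0.26). Of the protein-coding genes 4173 were higher and 3257 lower (median 0.08). Use of strand in the counting is not given in the sources used here, so reads of antisense genes and their partners cannot be told apart.

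The direction of calls went with GC content. Genes were placed in 5 equal bins by the GC content of their longest transcript. In the bin of lowest GC content (23.1 to 41.3%), 43.4% were higher and 10.3% lower, with a median of 0.27. In the bin of highest GC content (58.3 to 78.8%), 23.1% were higher and 45.2% lower, with a median of -0.20. The 3 bins between lay in order between these, at medians of 0.18, 0.04 and -0.10. After trends with GC content and length were removed by splines for 13441 genes, 4755 genes were higher and 4959 lower, and 89.9% of the calls that could be compared kept their direction, while 2 were called in the opposite one. In that fit 14 MHC class I and 9 MHC class II genes were lower, and the 32 G1/S and 28 G2/M genes were higher. The fit moved some other counts by more than 1.5 times. Cholesterol synthesis genes lower went from 9 to 16, ER chaperones lower from 2 to 5, YAP and TEAD targets lower from 3 to 5, ribosomal proteins higher from 2 to 4, EGFR family genes lower from 0 to 1 and mitochondrially encoded genes higher from 2 to 1.

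**Figure D5:**
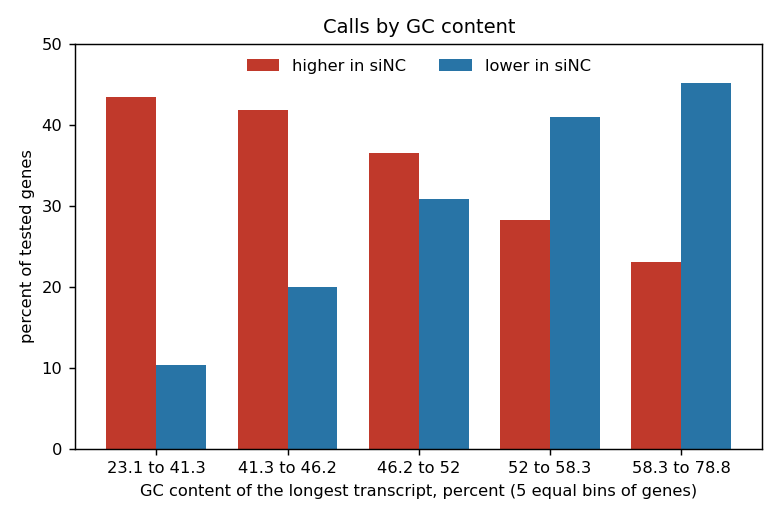
Percent of tested genes called higher (red) or lower (blue) in siNC, in 5 equal bins of genes by the GC content of their longest transcript. Higher calls go from 43.4% in the lowest bin to 23.1% in the highest, and lower calls from 10.3% to 45.2%.

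Markers of other cell types were near the floor in both groups, apart from a few genes. Of 10 fibroblast markers 3 were tested, and the others, DCN, LUM, THY1 and PDGFRA among them, were under 1 FPKM. COL1A2 was at 323, 326 and 336 FPKM in control and at 129, 135 and 129 FPKM in siNC (-1.32 ± 0.06), PDGFRB fell from 8.97 ± 0.757 to 1.42 ± 0.146 FPKM (-2.04 ± 0.09), and the summed level of the list was 337 to 353 FPKM in control and 139 to 147 in siNC. COL1A1 was higher by 0.31 ± 0.09 (adjusted p = 0.0252) and lost the call after median-ratio scaling (adjusted p = 0.0941) or without any 1 siNC library (0.0675 to 0.0807), and its change was 0.59 with the GC and length trends removed. Of 15 leukocyte markers 2 were tested. CD14 fell from 35.4 ± 4.95 to 6.99 ± 0.285 FPKM (-2.18 ± 0.11) and CSF1R had 2.23 ± 0.31 and 1.92 ± 0.16 FPKM (adjusted p = 0.221, and 0.0242 without control 1), with sums of 33.2 to 44.1 and 10.3 to 11.7 FPKM. The leukocyte antigen PTPRC had means of 0.0543 and 0.0341 FPKM, and MS4A1 and AIF1 were at 0. CD14, which made up most of the summed level, fell together with the MHC genes. The part of leukocyte markers in the MHC decrease was not tested. Of 9 endothelial markers 3 were tested, with sums of 24.5 to 27.2 FPKM in control and 33.3 to 35.9 in siNC, led by ENG (0.56 ± 0.07), CDH5 (-1.41 ± 0.06) and PECAM1 (-0.66 ± 0.09). Of 12 adipocyte markers 4 were tested, with sums of 23.7 to 26.1 and 18.6 to 20.2 FPKM. AQP7 fell by 1.67 ± 0.07, PLIN1 by 0.72 ± 0.07 and PLIN4 by 0.48 ± 0.08, PPARG rose, and ADIPOQ and CIDEA were at 0. Their part in the FABP4 increase was not tested.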

How the data were processed

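RNA of NCI-H1975 cells was sequenced after TRIzol extraction, oligo(dT) enrichment and paired-end library preparation, per the labels' protocols. The authors deposited a table of FPKM for 15 libraries, and the tools listed in the submitters' processing notes are featureCounts, HISAT2 and DESeq2 on hg19, without version or role. Symbols, gene types, GC content and length came from Ensembl IDs (60463 of 61248 loci matched) and GENCODE 29, and because the builds differ no gene positions are given from them. Read totals were recovered from the FPKM steps (100% of 431735 positive values whole within 0.01 reads). The 3 siNC and 3 control libraries were fitted with limma 3.58.1 (R 4.3.3) on log2(FPKM + 1) with an intensity trend and robust moderation, 1 coefficient per group and 4 residual degrees of freedom, and p-values (two-sided) were adjusted by Benjamini-Hochberg over 13907 genes, with 0.05 as threshold. Steps were tested on simulated data. No set test was run.

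The members and the 42 gene lists were chosen with earlier results of these data known. Named are the given marker genes and EGFR, the 12 largest increases and decreases (no overlap, 5 FPKM or more on the higher side, a named locus outside families that share reads), up to 3 members per list with the smallest p, the 3 most abundant called genes in each direction, MALAT1 and GAPDH. Further list members appear as illustrations picked with their values in view. A few list entries, SOD2 and H2AC18 among them, were not matched, and some items are not reported here. The main fit did not pair libraries by replicate number. Promoter windows of 250 bases came from RefSeq (GRCh38.p14) through gene symbols. Tables and figures used Python 3.11.15, pandas 2.3.3, numpy 2.4.6 and matplotlib 3.10.9.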

Additional observations from a re-analysis of the deposited data

How the results depend on the processing

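Depth recovered from the values was 18009903 to 34908302 reads, and 3 libraries per group limit the precision. The 18 alternatives changed the pseudocount, filter, scaling, libraries, variance model, threshold, GC and length trends or the replicate block, or left out 1 library. With a filter of 5 FPKM, 7595 genes remained to test, and 3115 were higher and 2247 lower. Among them 487 were at least 2-fold lower, and 4 MHC class II genes were lower. With a filter of above 0 FPKM in 3 libraries, 29653 genes were tested, and 5609 were higher and 5719 lower. At adjusted p under 0.01, 3610 of the 13907 genes were higher and 3203 lower. The share of genes called thus depends on filter and threshold. Genes at least 2-fold lower numbered 1461 with a pseudocount of 0.1 and 1553 by limma-voom on the recovered reads, and those at least 2-fold higher 1560 and 1638. Both settings use a smaller added value, which shrinks low genes less. Without 1 library the higher genes ranged from 3899 to 5862 and the lower from 3487 to 4605, with 1017 to 1230 at least 2-fold higher and 754 to 830 at least 2-fold lower. The highest counts came without control 1, which stood apart on the second component.

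The labels do not say whether same-numbered libraries were paired. Correlations of same-numbered deviations were -0.083, 0.265 and -0.164, and those of the other pairs ran from -0.351 to 0.386. With 3 libraries per group these values cannot decide it. With the replicate block 4740 genes were higher and 4077 lower. Of all calls 53.4% were higher, and 48.9 to 58.1% over the alternatives. At an unadjusted p under 0.05, 471 further genes would have been called. Of 147 named genes 142 kept direction and call under each of the alternatives run for them, and none reversed. This covers 2635 values, as 11 of the genes were not among those tested with the 5 FPKM filter. COL1A1, CSF1R, MT-CO1, MT-CO2 and MT-ND2 did not keep their side of the threshold. Most named genes were chosen for a small p or a large change in these same libraries, so this count could hardly come out otherwise. Of all 8919 calls, 76.4% were kept at adjusted p under 0.01 and 82.4 to 98.9% without 1 library. Of the list counts other than those of the 10 leading results, 1209 values stayed within 1.5 times of the reported count and the others moved further.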
